A study of Populus tremula x Populus tremuloides with 6 samples.

Results

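In leaves of hybrid poplar, 100 genes that wild-type plants transcribed at 10 CPM or more stood at least 4-fold lower in plants that overexpress the transcription factor MYB117. They were picked from 34267 loci whose identifier starts with Potra, of which 12818 reached 10 CPM in wild type. CPM, the counts-per-million, is a gene's reads for every 1000000 reads in loci of the same library. A gene was taken when its mean in the MYB117 plants was at most 1/4 of its wild-type mean and its highest MYB117 library lay below its lowest wild-type library. The contrast between the genotypes therefore chose the genes, and their falls are described here without a test.

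The plants were Populus tremula x Populus tremuloides, clone INRA 353-38. The control group was 3 wild-type plants, and the other group was 3 plants transformed with MYB117 in the binary vector pMDC32, carried by Agrobacterium tumefaciens GV3101::pMP90. Each plant gave 1 library of messenger RNA from leaves 7 to 10 (leaf plastochron index), from plants kept for 1 month under mist and then for 2 months in the greenhouse. The labels do not say whether the MYB117 plants are separate transgenic lines or copies of 1 line. Libraries held 28960403 to 49442174 reads in loci.

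MYB117 is an R2R3-MYB protein. Such proteins bind DNA through a pair of MYB repeats, and in poplar several of them switch genes of flavonoid, anthocyanin or proanthocyanidin synthesis on or off. The vector pMDC32 drives its insert from a constitutive viral promoter, so the factor can be made in cells that would not normally make it, and a lowered transcript may lie far downstream of it. Leaf RNA is a mixture of many cell types, so fewer cells of a type and less RNA per cell cannot be told apart. Identifiers stand in the files without gene or product names. No function is therefore given to any of the 100 genes, markers of leaf cell types and the level of MYB117 itself were not analysed here, and no value checks the genotype labels. The genes are called by their rank in mean wild-type level, from rank 1 to rank 100, and 2 identifiers are printed.

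The 100 genes ranged from 10.1 to 550 CPM in wild type, with a median of 28.0 CPM, near the median of 29.4 CPM over all 12818 genes of at least 10 CPM. In the MYB117 plants they ranged from 0.418 to 118 CPM, with a median of 4.30 CPM. In wild type, 16 of them had a mean of at least 100 CPM and 67 of at least 20 CPM. In the MYB117 plants 75 were below 10 CPM, 55 below 5 CPM and 9 below 1 CPM. None was lost from the libraries: each of the 100 had at least 1 read in every MYB117 library, and only 2 of them had 3 or fewer reads in some MYB117 library. The median member had 4.53, 4.82 and 3.74 CPM in MYB117 libraries 1, 2 and 3, against 26.6, 25.4 and 24.5 CPM in the wild-type libraries.

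**Figure D1:**
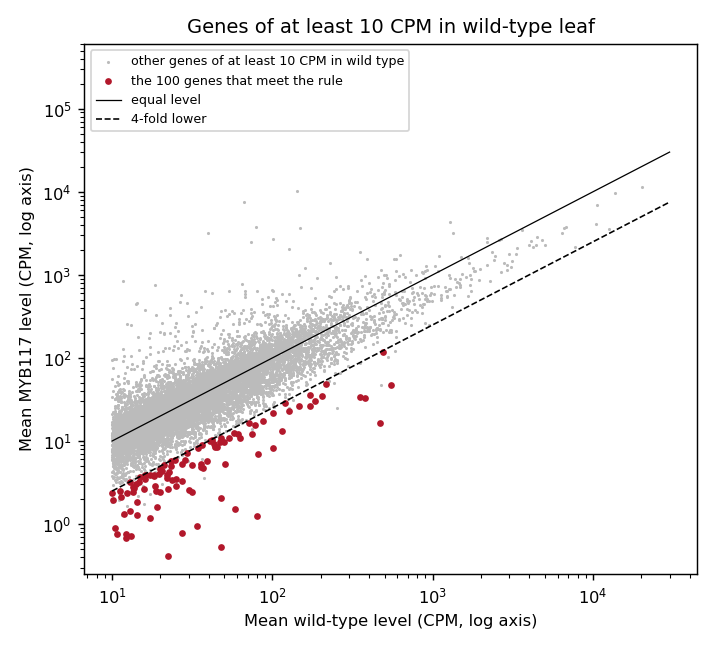
Mean level in wild-type leaf (horizontal, CPM, log axis) against mean level in MYB117 leaf (vertical, CPM, log axis) for genes of at least 10 CPM in wild type. Red points are the 100 genes that meet the rule. They lie on or under the dashed line of a 4-fold fall, at wild-type means of 10.1 to 550 CPM, and grey points under that line are genes whose groups overlapped.

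Together the 100 genes held 0.644% ± 0.0325 of the reads in loci in wild type and 0.0952% ± 0.0128 in the MYB117 plants (mean ± SD, n = 3 libraries each). A few genes made up much of this: the 10 most abundant held 49.3% of the group's wild-type CPM and the 5 most abundant 34.7%. The other genes were transcripts of moderate level.

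Rank 1, Potra188105g28563, had 337, 733 and 579 CPM in wild-type libraries 1, 2 and 3 and 111, 21.8 and 10.6 CPM in MYB117 libraries 1, 2 and 3. Its mean fell from 549.7 ± 199.6 to 47.6 ± 54.7 CPM, 11.5-fold. The groups did not overlap, but the MYB117 plants differed among themselves, and plant 1 kept several times as much transcript as the other two. Without MYB117 plant 1 the ratio is 33.9. Rank 2 was among the smallest falls of the group, from 407, 581 and 479 CPM to 50.3, 134 and 168 CPM, 4.16-fold. Here MYB117 plant 1 was the lowest of its group, the reverse of rank 1.

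The clearest separation at a high level was seen at rank 3, at 445, 559 and 401.5 CPM in wild type and 22.2, 12.03 and 14.7 CPM in the MYB117 plants. Its lowest wild-type library was 18.1 times its highest MYB117 library, and the ratio of the means was 28.7. Rank 4 was at 438, 434 and 257 CPM and then at 32.4, 36.7 and 29.5 CPM, a fall of 11.5-fold to levels that were alike in all MYB117 plants. Rank 5 went from 333, 527 and 188 CPM to 19.2, 48.2 and 34.5 CPM, 10.3-fold. Ranks 3, 4 and 5 thus each fell more than 10-fold, and the lowest wild-type library of ranks 4 and 5 was 7.02 and 3.89 times the highest MYB117 library.

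Ranks 6 to 10 fell 4.39- to 6.51-fold. Rank 6 was steady in wild type, at 189, 246 and 209 CPM, and uneven in the MYB117 plants, at 81.7, 36.04 and 28.9 CPM, with a ratio of 6.62 without MYB117 plant 1. Rank 7 was the opposite case, with 491 CPM in wild-type plant 1, 71.5 and 52.7 CPM in the other wild-type plants, and 52.1, 23.1 and 27.8 CPM in the MYB117 plants. The last wild-type value and the first MYB117 value of rank 7 are almost equal, and its 5.97-fold ratio is 1.81 without wild-type plant 1. Rank 8 had 49.4, 219.8 and 284 CPM in wild type and 22.5, 48.9 and 20.4 CPM in the MYB117 plants, and its groups nearly touched in the same way. Rank 9, at 257, 151 and 107 CPM against 32.1, 21.3 and 25.7 CPM, was well separated. Rank 10 was at 322, 115 and 74.0 CPM in wild type and at 50.8, 16.9 and 40.01 CPM in the MYB117 plants, with plant 1 the highest of both groups, and its ratio is 2.63 without wild-type plant 1.

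**Figure D2:**
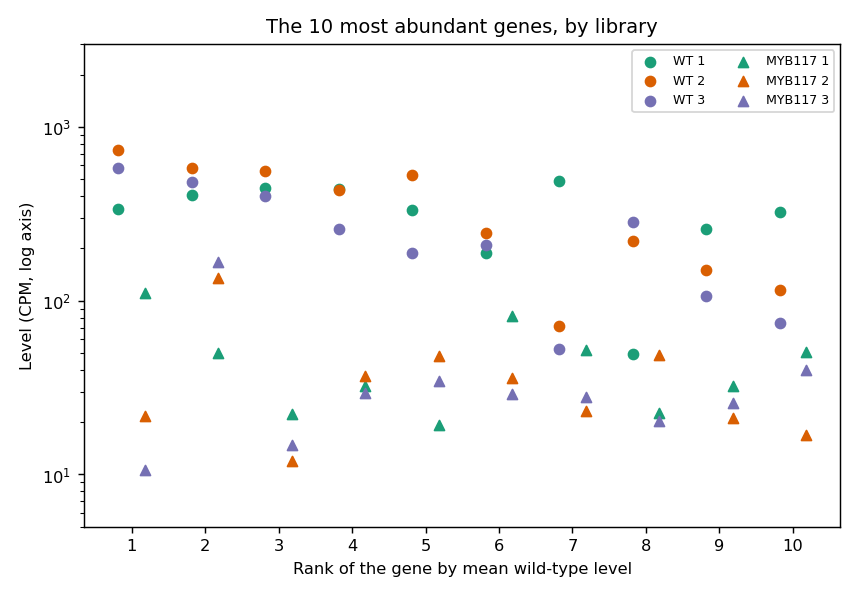
Level in each library (CPM, log axis) of the 10 genes with the highest wild-type means, by rank. Circles are wild-type and triangles MYB117 libraries, coloured by replicate number. At ranks 3, 4 and 5 the triangles lie far below the circles, whereas at ranks 7 and 8 the lowest circle (52.7 and 49.4 CPM) meets the highest triangle (52.1 and 48.9 CPM).

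Most falls were moderate. The ratio of means ran from 4.02 to 89.9 with a median of 5.60; 38 genes fell less than 5-fold, 23 at least 10-fold, 11 at least 16-fold and 6 at least 32-fold. The gene with the largest ratio, 89.9, was Potra006774g33172 at rank 32. Its wild-type libraries held 134.6, 3.99 and 3.95 CPM and its MYB117 libraries 1.51, 0.0202 and 0.0569 CPM, the last 2 values being 1 and 2 reads. In both groups the plant numbered 1 had by far the most transcript. Without wild-type plant 1 its ratio is 7.50, its mean is below 10 CPM and it would not be a member. Without MYB117 plant 1 the ratio is 1233, set by those few reads.

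The second largest ratio, 64.1, was at rank 19, with the same pattern: 200.5, 20.6 and 18.3 CPM in wild type and 3.47, 0.0405 and 0.228 CPM in the MYB117 plants. It met the rule whichever library was left out, but its ratio is 15.6 without wild-type plant 1 and 595.6 without MYB117 plant 1. Rank 61 had 3.49, 61.2 and 2.31 CPM in wild type and 0.731, 0.324 and 0.199 CPM in the MYB117 plants, and its 53.5-fold ratio rests on wild-type plant 2, without which it is 6.94 and the gene fails the minimum level. It is 85.5 without MYB117 plant 1. By contrast rank 25, with the fourth largest ratio of 38.0, was even in wild type, at 49.9, 62.8 and 62.1 CPM, and low in every MYB117 plant, at 1.86, 2.08 and 0.654 CPM. Rank 45, the fifth by ratio at 36.2, had 32.3, 13.9 and 55.98 CPM against 0.448, 1.29 and 1.08 CPM.

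The ratio of means can hide groups that almost meet, so the lowest wild-type library was also set against the highest MYB117 library. That gap had a median of 2.16, was at least 2 in 55 genes, at least 4 in 14 and at least 10 in 3, which are ranks 25, 3 and 45 with gaps of 24.0, 18.1 and 10.8. Low-level members could be as clearly separated as abundant ones. Rank 94 is an example, with 11.2, 13.8 and 10.7 CPM in wild type and 0.872, 1.68 and 1.37 CPM in the MYB117 plants, a gap of 6.38. Absence of overlap in this direction is common in itself: it held for 17.5% of all genes of at least 10 CPM. A 4-fold lower mean was rare, at 1.05% of the genes of at least 10 CPM, and the whole rule was met by 0.780%.

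**Figure D3:**
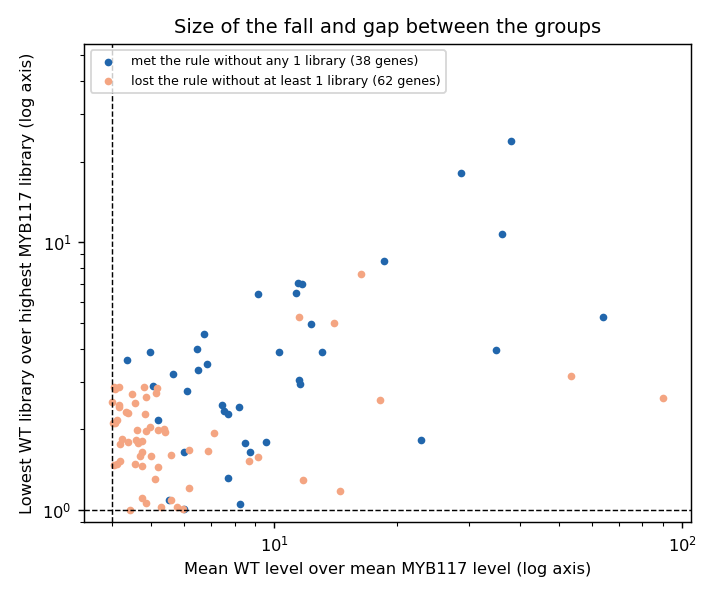
Ratio of the mean wild-type to the mean MYB117 level (horizontal, log axis) against the lowest wild-type library over the highest MYB117 library (vertical, log axis), 1 point per gene. Blue points are the 38 genes that met the rule whichever single library was left out and orange points the other 62. Dashed lines are the limits of the rule. Ranks 25, 3 and 45 stand highest, and many orange points lie close to the 4-fold line.

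Genes just inside and just outside the limits had similar values. The 3 smallest ratios inside were 4.02, 4.02 and 4.04, and the 3 largest outside were 3.99, 3.99 and 3.98. The lowest wild-type means inside were 10.05, 10.2 and 10.5 CPM, and genes with means of 9.96, 9.84 and 9.57 CPM missed only the level. The smallest gaps inside were 1.00, 1.01 and 1.01, and those outside 0.952, 0.904 and 0.889.

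The 100 genes varied widely between wild-type plants. The coefficient of variation over the wild-type libraries had a median of 0.504 in the 100 genes and 0.198 in all 12818 genes of at least 10 CPM. In the MYB117 libraries the medians were 0.450 and 0.142, at unlike levels. The members had a median of 4.30 CPM there, whereas all genes of at least 10 CPM had a median ratio of wild type to MYB117 of 0.982. Members had a median of 186 reads in a MYB117 library, a number for which counting alone gives a coefficient of variation of 7.34%. This value holds at the median count of the MYB117 libraries only. Counts there ran down to 1 read, where counting error is larger. The rule uses the group means and the gap, both of which depend on the spread, so these medians are descriptions. In 27 of the 100 genes the highest wild-type library was at least 5 times the lowest, against 3.82% of all genes of at least 10 CPM. In 31 it was less than 2 times, against 77.2%.

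For 48 of the 100 genes a single wild-type plant supplied over 50% of the summed wild-type CPM, against 10.6% of all genes of at least 10 CPM. That plant was number 1 in 18 genes, number 2 in 11 and number 3 in 19. Rank 23 is a case for plant 3, at 13.5, 16.5 and 157.6 CPM in wild type and 10.5, 13.2 and 8.73 CPM in the MYB117 plants. Rank 35 is one for plant 2, at 14.02, 97.02 and 20.2 CPM against 6.58, 8.96 and 9.67 CPM. In both genes the other wild-type plants stood much closer to the MYB117 plants. At the other end, 16 genes varied less than 2-fold within each genotype, ranks 3, 4, 18 and 27 among them. Rank 27 was the most even of these 4 in the MYB117 plants, with 44.1, 60.9 and 56.7 CPM in wild type and 10.9, 11.3 and 10.4 CPM after a 4.97-fold fall.

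The group fell into sets of similar size by the wild-type plant in which each gene was highest: 34 genes peaked in plant 1, 34 in plant 2 and 32 in plant 3. Over all genes of at least 10 CPM these shares were 24.7%, 43.5% and 31.7%. The ratio of means had a median of 5.54 in the first set, 7.14 in the second and 5.41 in the third, all above the 4-fold limit by the choice of genes. In the MYB117 plants 44 genes were highest in plant 1, 44 in plant 2 and 12 in plant 3, whereas over all genes of at least 10 CPM the shares were 22.7%, 34.1% and 43.2%. MYB117 plant 3 thus had the highest level in few of the 100 genes. It had the lowest in 40 of them, against 36 for plant 1 and 24 for plant 2. The lowest plant was not counted over all genes of at least 10 CPM. These counts and shares, and those of the next paragraph, use CPM without further scaling. The TMM scaling factors used by edgeR were 0.860, 1.063 and 0.994 for wild-type libraries 1, 2 and 3. For the MYB117 libraries they were 0.966, 1.067 and 1.066. Which plant is highest depends in part on scaling, most in genes that vary little between plants. The shares were not computed on scaled levels.

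Genes that peaked in wild-type plant 1 often peaked in MYB117 plant 1 too, in 22 of 34 cases, or 64.7%, against 48.0% of all genes that peaked in wild-type plant 1. Of the 32 that peaked in wild-type plant 3, 23 peaked in MYB117 plant 2 and 0 in MYB117 plant 3, where the shares over all such genes were 44.6% and 44.4%. A spread of at least 5-fold among the MYB117 plants occurred in 14 genes, 12 of them with plant 1 highest, as at ranks 1, 19 and 32. Across the 12818 genes of at least 10 CPM, the log2 deviation of plant 1 from the other plants of its genotype had a correlation of 0.504 between wild type and MYB117, and across the 100 genes one of 0.347. For plant 2 these correlations were 0.238 and 0.0202, and for plant 3 they were 0.133 and -0.0374. The same number was highest in both genotypes in 38 of the 100 genes, against 41.4% of the 12818. Genes of 1 library share its depth and are not replicates, so these are descriptions. Whether a shared condition of these plants has a part in the falls was not tested.

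**Figure D4:**
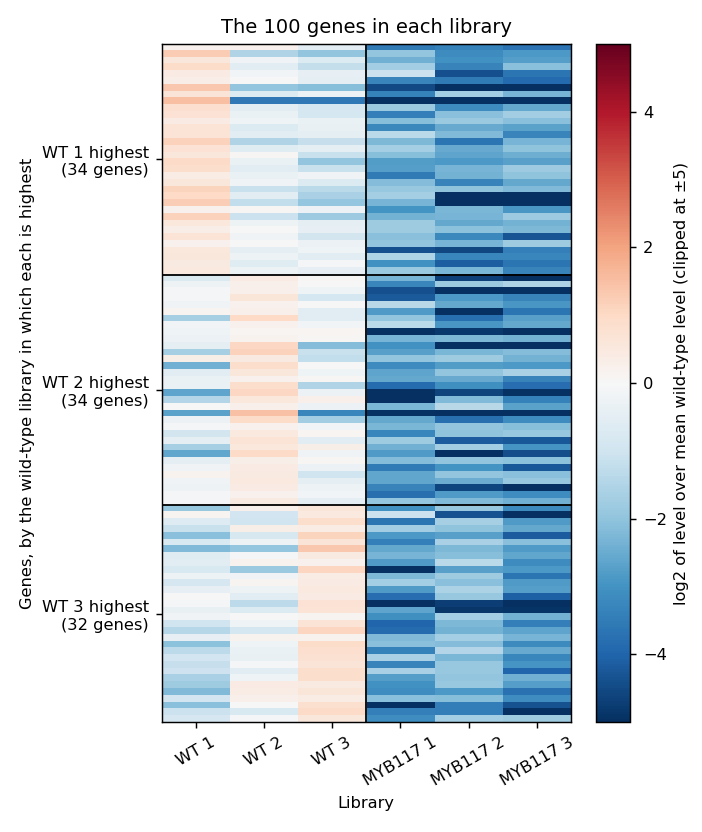
Level of each of the 100 genes (rows) in each library (columns), as log2 of its CPM over the gene's wild-type mean, clipped at 5 in either direction. Rows are grouped by the wild-type library in which the gene is highest (34, 34 and 32 genes) and ordered by wild-type mean within each set. Blue fills the MYB117 columns in all sets, while the red cells of the wild-type columns shift from plant 1 to plant 3 down the plot.

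Because single plants weigh so much, the rule was applied again with each library left out in turn. Of the 100 genes, 38 met it in all 6 repeats and 62 failed it in at least 1, among them 36 that failed it in exactly 1. The ratio of means moved by more than 1.5 times without some library in 48 genes. A gene near the 4-fold limit can fail after a small move. Rank 56, with a ratio of 4.17, failed at ratios of 3.83 to 3.98. A failure therefore does not by itself mean that 1 plant carried the fall, and genes with larger ratios pass the repeats more easily. In all, 24, 18 and 18 genes failed without wild-type plants 1, 2 and 3, and 13, 7 and 17 without MYB117 plants 1, 2 and 3. Leaving out a wild-type library can break the minimum level or the 4-fold limit, and leaving out a MYB117 library only the 4-fold limit. The counts of the genotypes are therefore not like for like. The 38 genes had ratios of 4.37 to 64.1 with a median of 8.35, and the other 62 a median of 4.84. They include ranks 1, 3, 4, 5, 8, 9, 19, 25, 27 and 45, but not ranks 2, 6, 7, 10, 32 or 61. Leaving out a library also let other genes in, so that 101 to 182 genes met the rule with 5 libraries, the most without MYB117 plant 1, and 160 met it without both libraries numbered 1.

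Values in libraries left out of a choice are not set by that choice. Genes were therefore chosen without the libraries of 1 replicate number and then read in those 2 libraries. This compares 1 wild-type plant with 1 MYB117 plant and allows no test. The rule and its limits were set with earlier results of these data known, so the readings are descriptions. Of 160 genes chosen without number 1, 131 were lower in MYB117 plant 1 than in wild-type plant 1, or 81.9%, against 44.1% of all genes of at least 10 CPM in the libraries used. Of 141 chosen without number 2, 130 were lower in the plants numbered 2, or 92.2%, against 49.2%. Of 130 chosen without number 3, 120 were lower, or 92.3%, against 42.6%. Most of the chosen genes were thus also lower in the MYB117 plant of the unused pair.

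The fall was smaller in the unused plants. The median ratio of the chosen genes was 6.17, 6.06 and 5.35 in the libraries used and 2.36, 3.32 and 2.84 in the unused plants numbered 1, 2 and 3. The median over all genes of at least 10 CPM was 0.937, 0.993 and 0.934 in those plants. A fall of at least 4-fold was found in 33.8%, 41.1% and 36.2% of the chosen genes, against 1.78%, 1.31% and 1.69% of all genes, and a fall of at least 2-fold in 60.0%, 78.7% and 71.5%, against 11.3%, 9.20% and 6.92%. Of the 160, 141 and 130 genes chosen in this way, 76, 85 and 70 are among the 100 members, so these medians describe groups that only partly coincide with the members.

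**Figure D5:**
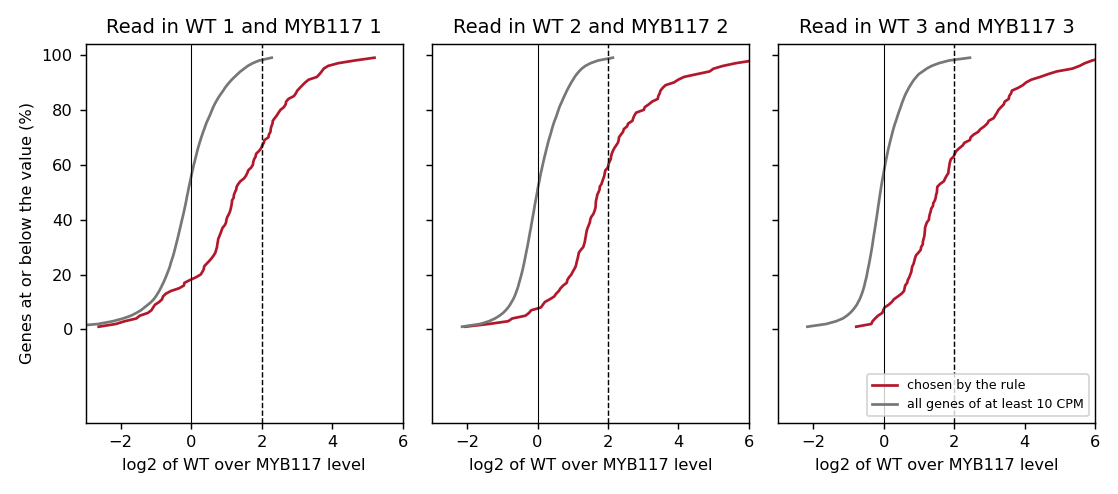
Percent of genes at or below each log2 ratio of wild-type to MYB117 level, read in the pair of plants that the choice did not use. Red lines are genes chosen by the rule in the other 4 libraries (160, 141 and 130 genes) and grey lines all genes of at least 10 CPM there. Solid and dashed vertical lines mark no difference and a 4-fold fall. The red lines lie to the right of the grey ones in all panels, and 33.8% to 41.1% of the chosen genes lie past the dashed line.

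In the fit over the whole table, the quasi-likelihood F test of edgeR (p-values adjusted by Benjamini-Hochberg) called 80 of the 100 genes lower at an adjusted p below 0.05, where 7.19% of all 26854 tested loci were lower, 9.94% were higher, and 9.99% of the genes of at least 10 CPM were lower. The rule used the same contrast, so nothing is read from this number. The median log2 fold change was -2.58 in the 100 genes and -0.06 over all tested loci. Of the 48 genes in which 1 wild-type plant supplied over 50% of the CPM, 30 were called and 18 were not, ranks 7, 10, 19, 23 and 32 among the latter. The genes without a call numbered 20 in all. The count of members called lower was 49 without wild-type plant 2, 38 without MYB117 plant 2 and 33 without MYB117 plant 3. Over all tested loci the share called lower fell too, to 2.46%, 1.16% and 1.62% in these fits. DESeq2 called 94 of the 95 members to which it gave a p, and 13.0% of all tested loci.

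What surrounds the 100 genes was not used by the rule. Identifiers consist of a first number, the letter g and a second number, and loci with the same first number follow each other in the files. The 100 genes carried 100 different identifiers with 99 different first numbers, and none stood next to another member by locus number. The 1 pair with a common first number, ranks 10 and 93, had different profiles: rank 93 was at 2.87, 12.5 and 21.3 CPM in wild type, highest in plant 3, and at 0.307, 1.11 and 0.597 CPM in the MYB117 plants, whereas rank 10 was highest in plant 1.

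Among 579 tested loci that share a first number with a member and are not members themselves, 51 were lower (8.81%) and 55 higher (9.50%) in the MYB117 plants (edgeR, adjusted p below 0.05). Over all tested Potra loci the shares were 7.63% and 9.27%, so loci sharing a first number with a member changed about as often as any others, in either direction. Only 74 of the 100 members had a tested locus of this kind. The median log2 fold change was -0.10 in these loci and -0.08 in all tested Potra loci. Of 142 tested loci directly before or after a member by locus number, whether or not they shared its first number, 11 were lower (7.75%) and 8 higher (5.63%).

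For 3 members a further locus carries the same identifier. The second locus of rank 48 had 1.38, 5.90 and 0.395 CPM in wild type and 0.330, 0.223 and 0.256 CPM in the MYB117 plants (edgeR, log2 fold change -3.25 with an SE of 0.936, adjusted p = 0.057). Its member had 24.1, 55.5 and 10.6 CPM against 2.08, 3.56 and 2.16 CPM, with the same order of the wild-type plants. The second locus of rank 57 had 2.28, 0.824 and 0.447 CPM and then 0.212, 0.263 and 0.171 CPM (edgeR, log2 fold change -2.58 with an SE of 0.737, adjusted p = 0.0562), and its member 45.5, 18.9 and 5.998 CPM against 3.42, 3.18 and 3.61 CPM. Both second loci thus followed the wild-type order of their member, and neither passed the adjusted test. The second locus of rank 8 had 0 reads in all 6 libraries.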

How the data were processed

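The deposited files hold raw read counts per locus, 1 file per library, not normalized by the authors. The submitters' processing notes name HISAT2 2.1.0, Cufflinks and HTSeq 0.6.1. For build, annotation, strand and counting options nothing is stated in the sources used here, so overlapping genes and near-identical copies are uncertain. The last 5 rows, reads given to no locus, held 27.0% to 29.6% of a library (10.1% to 12.5% on more than 1 locus) and were left out. CPM were computed from reads in loci, without further scaling. Replicates are single plants by their labels, and p-values set the difference between the groups against the spread between these libraries.

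The fit over all loci used edgeR 4.0.16 (R 4.3.3): quasi-likelihood F test, two-sided, TMM scaling, minimum count 10 and total 15, no covariate, Benjamini-Hochberg adjustment over 26854 loci. SE is the size of a log2 fold change over the square root of F. The edgeR fit was tested on simulated counts with known falls, 1 fixed dispersion and no single outlying plants. That test does not cover genes as uneven between plants as many of the members. Alternatives used DESeq2 1.42.0, limma 3.58.1 voom, other scalings and filters, and left-out libraries. Python 3.11.15 was used for the rest.

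The genes, the rule and the comparisons were chosen with earlier results of these data known. The 2 printed identifiers are the highest wild-type mean and the largest ratio with at least 1 read in each MYB117 library. The other genes in the text were named by rank: the 10 most abundant, the 5 largest ratios, and examples chosen after their values were seen. Gene lists and cell type markers needed gene names and were not analysed here.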

Additional observations from a re-analysis of the deposited data

How the results depend on the processing

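The number of genes that meet the rule, 100, was 204 with a 3-fold and 62 with a 5-fold limit, 160 without both libraries numbered 1, and 101 to 182 with 1 library left out, 182 without MYB117 replicate 1. With TMM-scaled CPM it was 125, of which 98 were members, and with counts thinned to the smallest library 97, of which 94 were members. The 80 members called lower became 33 to 83 with 1 library left out, and the 1930 loci called lower over the whole table became 316 to 2273, and 3483 with DESeq2. Without both libraries numbered 1, 95 members and 2685 loci were called lower. The median log2 fold change of the members, -2.58, was -2.79 to -2.45 over all refits, and no member had a positive one. The share of reads was 0.589% in wild type without the most abundant member, and 0.467% and 0.0682% in the 2 groups when all reads are the total. The percent at least 4-fold lower in unused plants, with a middle value of 36.2, was 33.8 to 41.1. With 1 library of the same group left out, the share of reads was 0.6275% to 0.660% in wild type. In the MYB117 plants it was 0.0891% to 0.102%. Same-numbered plants deviated from their group means with correlations of 0.356, 0.171 and 0.0384 across loci, so the main fit did not take the numbers as pairs. Wild-type plant 3 correlated best with MYB117 plant 2 (0.370). The readings in unused plants did set plants of the same number side by side. Other combinations of plants were not read, so those percentages hold for the same-numbered plants only. With the replicate number as a block, 80 members and 2067 loci were called lower. Potra188105g28563 lost its call when replicate 2 or 3 of either genotype was left out, at log2 fold changes of -3.49 to -3.04 against -3.52 with all libraries. Potra006774g33172, not called with all libraries, was called with the block and without the libraries numbered 1. Without those libraries it had 3.99 and 3.95 CPM in wild type, below the minimum level, and 1 and 2 reads in the MYB117 plants.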

Other observations

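Other genes and loci showed the same numerical pattern without belonging to the group. Loci with no identifier met the limits in 6 cases and named hairpin loci in 0. The most abundant of the 6 had 69.7, 83.6 and 51.9 CPM in wild type and 10.6, 18.9 and 17.97 CPM in the MYB117 plants, 4.32-fold lower, and the largest ratio among them was 11.5. With the genotypes exchanged, 504 Potra loci met the rule as rises.

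Overlap between the groups kept out 35 genes that reached the level and the 4-fold limit. The most abundant of these had 1572, 101.9 and 61.9 CPM in wild type and 315, 23.3 and 26.2 CPM in the MYB117 plants. The second had 131.5, 136.9 and 1301 CPM against 89.7, 164 and 53.1 CPM, with MYB117 plant 2 above wild-type plant 2. The third had 1258, 98.2 and 79.05 CPM against 125.5, 6.57 and 8.96 CPM, highest in plant 1 of each genotype like the first. Another, with a ratio of 10.1, had 12.4, 379.8 and 367 CPM against 45.1, 6.19 and 23.6 CPM, and its MYB117 plant 1 was above wild-type plant 1.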
